A study of Mus musculus with 14 samples.

Results

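Igf2bp1, Igf2bp2, Igf2bp3, Igf2, Lin28a, Lin28b, Hmga1, Hmga2 and Arid3a, 9 genes best known from fetal and embryonic cells, were followed through both experiments of the series. They were selected by gene symbol, from results of these same data that were already known, out of 55367 gene symbols in each deposited count table, and all 9 have an entry in both tables. The values in the 2 comparisons are therefore given as a description of the chosen genes, with no p-value. Where a member is said to be called, this repeats the outcome of the fit over all genes and is no independent evidence. Of the 9 members, 6 passed the filter on low counts in SETBP1-D868N against luciferase and 5 in PF-9363 against DMSO, and the others were at or close to the detection limit.

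Messenger RNA was sequenced from primary lineage-negative bone marrow cells of wild-type mice, that is, marrow depleted of mature blood cells, in 14 libraries. All cells grew in IMDM with serum, SCF, IL6 and IL3, and every culture had received a pSMAL lentivirus. In the first experiment 3 libraries came from cells with a luciferase control virus and 3 from cells with a virus for SETBP1-D868N, a mutant form of the nuclear protein SETBP1. In the second, all cells carried SETBP1-D868N and were kept for 4 days with DMSO (4 libraries) or with 2.5 µM PF-9363 (4 libraries), an inhibitor of MYST histone acetyltransferases. The labels do not say that the cultures came from separate animals, so errors and p-values measure only the spread between these libraries.

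The IGF2BP proteins bind messenger RNAs, including m6A-marked ones and that of the growth factor IGF2, and favour their stability and translation. LIN28A and LIN28B bind precursors of the microRNA let-7 and block their maturation. Mature let-7 in turn represses HMGA2, the IGF2BP genes, LIN28 itself and ARID3A through sites in their 3′ UTRs. In blood formation this circuit is known for separating fetal from adult stem and progenitor cells: LIN28B, IGF2BP3 and HMGA2 are high in the fetal liver and low in adult marrow. The messenger RNA libraries do not measure mature let-7.

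The let-7 target sites are shown first because they are what the members have in common by sequence. RefSeq (GRCm38.p6) lists 9 mature let-7 family members with the same seed, bases 2 to 8, which is in capitals in the 3 examples that follow.
let-7a-5p: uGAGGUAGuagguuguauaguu
let-7g-5p: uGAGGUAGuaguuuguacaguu
miR-98-5p: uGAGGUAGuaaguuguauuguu

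The complement of that seed, CTACCTC, was searched on the coding strand of the longest annotated 3′ UTR of each gene (GENCODE M21, GRCm38). It was found 4 times in Igf2bp1, Lin28b and Hmga2, 2 times in Lin28a and Arid3a, and 1 time in Igf2bp2, Igf2bp3 and Hmga1. Igf2 had 0 matches, which says only that these letters are not in that 3′ UTR. So 8 of the 9 members held a match, against 9.02% of 21020 coding genes with a 3′ UTR, and 7.67% held the reverse complement of the same letters. Several members are textbook let-7 targets and the set was not drawn at random, so this share describes them and supports nothing. Longer 3′ UTRs hold more matches: among genes with a 3′ UTR of 0.8 to 1.25 times the length of that of Hmga2 (3014 bases), 16.0% held at least 1 match and 0.0821% held as many as 4. Among those of a length like that of Igf2bp3 (2119 bases), 13.3% held 1 or more. The sites of the 3 members on which the comparisons turn are printed with the seed match in capitals.
Igf2bp3 site 1, chr6:49086787-49086808, minus strand: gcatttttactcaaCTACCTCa
Hmga2 site 1, chr10:120364224-120364245, minus strand: ccgacattcaatttCTACCTCa
Hmga2 site 2, chr10:120362987-120363008, minus strand: cccactcctcaataCTACCTCt
Hmga2 site 3, chr10:120362549-120362570, minus strand: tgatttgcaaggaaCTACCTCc
Hmga2 site 4, chr10:120361691-120361712, minus strand: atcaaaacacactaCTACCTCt
Lin28a site 1, chr4:134005189-134005210, minus strand: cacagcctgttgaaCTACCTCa
Lin28a site 2, chr4:134004551-134004572, minus strand: agatcgccacaaacCTACCTCa

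The Igf2bp3 site and both Lin28a sites are followed by A, as are 1 of the 4 in Hmga2, 3 of the 4 in Igf2bp1 and 1 of the 4 in Lin28b. The search was added after the members' counts had been seen. Over all genes the medians by number of matches lay close together. In SETBP1-D868N against luciferase the median log2 fold change was 0.01 for 11519 tested genes with no match, -0.01 for 1184 with 1 match and 0.01 for 163 with 2 or more. In PF-9363 against DMSO the medians were -0.06 for 10135 genes, 0.05 for 1046 and -0.06 for 154. The shares of calls there differed more. With no match 36.8% were higher and 41.6% lower, with 1 match 42.8% and 36.8%, and with 2 or more 35.7% and 39.0%. The median 3′ UTR length of these groups rose from 1063 to 2133 and 3641 bases, and its part was not tested.

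**Figure D1:**
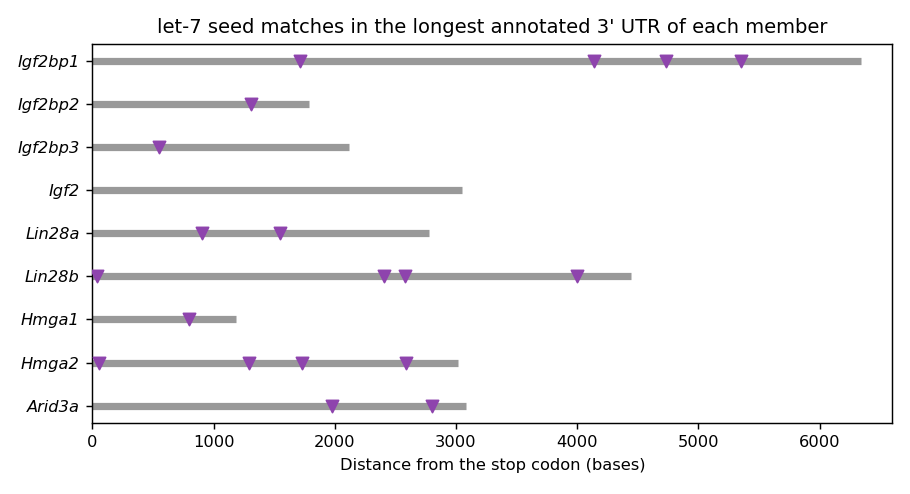
Position of each CTACCTC match (triangles) along the longest annotated 3′ UTR of the 9 genes (grey bars), in bases from the stop codon. Igf2bp1, Lin28b and Hmga2 carry 4 matches each and Igf2 carries 0.

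Promoter sequence is given for the 2 members with the largest difference between SETBP1-D868N and luciferase, as the 250 bases upstream of the start in RefSeq (GRCm38.p6). Capitals mark matches, on either strand, to an E-box (CACGTG), the letters CCAAT, a GC box (GGGCGG) or a MEIS-type motif (TGACAG), none of which overlaps another here.
Igf2bp3, chr6:49214955-49215204, minus strand: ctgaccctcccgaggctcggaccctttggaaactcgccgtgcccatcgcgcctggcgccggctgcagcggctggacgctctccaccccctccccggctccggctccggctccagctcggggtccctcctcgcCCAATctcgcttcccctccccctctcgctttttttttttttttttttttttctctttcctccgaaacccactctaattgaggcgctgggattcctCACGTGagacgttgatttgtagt
Hmga2, chr10:120476470-120476719, minus strand: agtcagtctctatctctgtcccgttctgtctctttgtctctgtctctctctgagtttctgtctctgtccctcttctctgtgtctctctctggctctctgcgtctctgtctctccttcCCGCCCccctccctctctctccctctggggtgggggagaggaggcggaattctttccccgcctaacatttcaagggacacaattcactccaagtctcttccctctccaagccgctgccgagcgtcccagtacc

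Igf2bp3 had 1 E-box and 1 CCAAT match, and Hmga2 had 1 GC box. Among 32851 RefSeq promoter windows 6.02% held the E-box, 33.8% CCAAT, 32.7% the GC box and 15.9% the MEIS-type motif. Lin28b held 1 E-box, 1 CCAAT match and 1 MEIS-type motif in its window. A match is a description and not a binding site.

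Depth was 60147266 to 68730322 counts per library with luciferase or SETBP1-D868N, and 7083731 to 10359093 with DMSO or PF-9363, so 1 count was worth about 0.015 CPM (counts scaled to library depth, with TMM) in the deeper set and 0.091 to 0.155 CPM in the other. The row for the gene symbol Setbp1 had 5 to 6 counts with luciferase, 20 to 24 with SETBP1-D868N, and 0 to 2 in the second experiment. That row gives no check of the transgene, since how the viral transcript was counted is not given in the sources used here. Of all genes tested, 24.5% were called higher and 22.7% lower with SETBP1-D868N, and 36.6% higher and 39.4% lower with PF-9363. The marker counts that follow stand beside these shares. All 7 progenitor markers fixed for the labelled cell type (Ptprc, Kit, Cd34, Flt3, Myb, Gata2, Spi1) were detected in both experiments. With SETBP1-D868N 3 of them were higher and 4 lower (summed level 1736 to 1751 CPM in luciferase, 1742 to 1771 in SETBP1-D868N), and with PF-9363 4 were higher and 2 lower (1155 to 1218 CPM in DMSO, 1850 to 1970 in PF-9363). The 5 lymphoid markers summed to at most 1.30 CPM in any library. Mature myeloid transcripts were also present. Markers of other cells moved with both comparisons. With SETBP1-D868N, 6 of 8 neutrophil markers were lower and 2 higher (summed level 23941 to 24919 CPM in luciferase, 15642 to 18081 in SETBP1-D868N), and 8 of 8 monocyte and macrophage markers were lower (849 to 883 against 517 to 549 CPM). Of the 7 mast cell and basophil markers 3 were higher and 4 lower (4386 to 4596 against 3927 to 4066 CPM). With PF-9363, 7 of 8 monocyte and macrophage markers were higher (403 to 498 CPM in DMSO, 2992 to 3590 CPM in PF-9363), as were 6 of 7 mast cell and basophil markers (991 to 1261 against 4126 to 5131 CPM), while 2 of 8 neutrophil markers were higher and 3 lower (17169 to 20382 against 16325 to 17750 CPM). None of the markers of these 3 lists was at 0 throughout an experiment. With PF-9363 the 5 megakaryocyte markers summed to 211 to 232 CPM, against 42.5 to 54.1 CPM in DMSO, with 2 of 3 tested higher and 1 lower. The 6 endothelial markers summed to 196 to 250.2 CPM against 24.9 to 45.2 CPM. Only 1 of these 6, Vwf, passed the filter there (log2 fold change 2.78), so that sum does not describe the endothelial markers as a set. The 9 stromal markers summed to 20.5 to 21.5 CPM in luciferase and 21.4 to 24.8 CPM in SETBP1-D868N, with 2 of 4 tested higher and 0 lower, and to 5.18 to 8.60 CPM in DMSO and 10.3 to 13.2 CPM in PF-9363, with 1 of 3 higher and 0 lower. The part of these cell types in the members' differences was not tested. In bulk libraries fewer cells of a type and less RNA per cell cannot be told apart.

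Among the RNA-binding proteins, Igf2bp3 had the largest difference of all members between SETBP1-D868N and luciferase. IGF2BP3 is a fetal-type reader of the family and is expressed again in some leukaemias. The gene lies at chr6:49085223-49214957 on the minus strand (GRCm38). Its level was 4.85, 4.85 and 4.88 CPM in the luciferase libraries (326, 316 and 290 counts) and 21.0, 21.5 and 20.1 CPM with SETBP1-D868N (1380, 1405 and 1337 counts). All 3 SETBP1-D868N libraries lay far above all 3 controls, at 20.9 ± 0.680 CPM (SD, n = 3) against 4.86 ± 0.0189 (SD, n = 3). The log2 fold change was 2.10 (SE 0.055), a 4.29-fold higher level.

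With the inhibitor, Igf2bp3 lay lower. The DMSO libraries had 96.4, 94.2, 91.6 and 80.8 CPM (974, 946, 980 and 893 counts), and the PF-9363 libraries 40.9, 44.5, 36.0 and 36.5 CPM (398, 346, 232 and 337 counts). The groups did not overlap, with 90.8 ± 6.89 CPM (SD, n = 4) against 39.5 ± 4.01 CPM (SD, n = 4). The log2 fold change was -1.20 (SE 0.082), that is 2.29-fold lower. Igf2bp3 shares 1529 bases of exon, 18.7% of its exons, with Malsu1 on the opposite strand, and whether the counting used strand is not given in the sources used here. Malsu1, which encodes a mitochondrial ribosome assembly factor, was not called in the first comparison (8.94 against 9.26 CPM, log2 fold change 0.05, SE 0.067, adjusted p = 0.58 by edgeR). In the second it was lower with PF-9363 (48.5 against 24.3 CPM, log2 fold change -1.001, SE 0.096, adjusted p = 1.76e-10 by edgeR), so reads of the 2 genes cannot be told apart there.

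Igf2bp2, the family member that stays on in many adult tissues, went the other way in both comparisons. It lies at chr16:22059009-22163299 on the minus strand. The luciferase libraries had 4.54, 4.48 and 4.95 CPM and the SETBP1-D868N libraries 3.08, 3.87 and 3.46 CPM. The groups did not overlap, and the log2 fold change was -0.42 (SE 0.10), from 4.66 ± 0.256 to 3.47 ± 0.395 CPM (SD, n = 3 each). In the second experiment the counts were low: 27, 19, 27 and 22 in DMSO, and 37, 29, 39 and 69 in PF-9363. In CPM this was 2.67, 1.89, 2.52 and 1.99 against 3.80, 3.73, 6.06 and 7.47, so all PF-9363 libraries were above all DMSO libraries and the PF-9363 libraries spread over a 2-fold range. The log2 fold change was 1.21 (SE 0.27).

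Igf2bp1, the third of the family, was at the detection limit. It had 3, 8 and 3 counts in luciferase, 2, 4 and 4 in SETBP1-D868N, 0 in all 4 DMSO libraries and 1, 3, 3 and 6 with PF-9363. It did not pass the count filter in either experiment. A count of 0 in a DMSO library allows up to 0.291 to 0.326 CPM, counted over the library total without TMM. The PF-9363 libraries had 0.103, 0.386, 0.466 and 0.649 CPM with TMM, which is a slightly different scale. Without the filter, edgeR and DESeq2 both placed it among the genes called higher with PF-9363. No fold is given, because 3 of the 4 PF-9363 libraries are at or under 3 counts.

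Igf2, the ligand whose messenger RNA gave the family its name, was not detected beyond that floor. It had 3, 2 and 2 counts in luciferase and 0, 1 and 0 in SETBP1-D868N, and 0 counts in all 8 libraries of the second experiment. A count of 0 there allows up to 0.290 to 0.424 CPM without TMM. Igf2 lies at chr7:142650766-142666816 on the minus strand. It shares 3596 bases, 62.8% of its exons, with Gm49394 on the same strand, which had 0 counts in every library of both experiments. How reads in shared exons were counted is not given in the sources used here, so such reads may be missing from both rows. The limits for Igf2 then hold only for reads that were counted. The imprinted neighbour of Igf2, H19, a non-coding RNA that is a member of the IGF list described further on, was detected. H19 had 96, 104 and 101 counts in luciferase and 21, 9 and 41 in SETBP1-D868N.

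Of the let-7 inhibitors, only Lin28a was expressed above the filter. LIN28A recruits TUT4 and TUT7 to let-7 precursors, and its gene lies at chr4:134003330-134018841 on the minus strand. Luciferase libraries had 23.5, 25.1 and 26.2 CPM (1580, 1637 and 1554 counts) and SETBP1-D868N libraries 21.7, 22.9 and 18.8 CPM (1426, 1497 and 1248 counts). The groups were next to each other without overlapping, at 24.9 ± 1.34 and 21.1 ± 2.10 CPM (SD, n = 3 each). The log2 fold change of -0.24 (SE 0.071) lost its call without luciferase library 2 (-0.23) or without luciferase library 3 (-0.20), and with scaling by library size alone (-0.19).

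PF-9363 went with a larger difference in Lin28a. DMSO libraries had 60.2, 52.6, 57.8 and 68.2 CPM and PF-9363 libraries 31.9, 37.4, 28.6 and 23.9 CPM. No PF-9363 library reached the lowest DMSO library, and the means were 59.7 ± 6.49 and 30.4 ± 5.68 CPM (SD, n = 4 each). The log2 fold change was -0.97 (SE 0.11), a 1.96-fold lower level. Lin28a thus lay on the lower side in both comparisons, unlike Igf2bp3.

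Lin28b, the paralogue that marks fetal liver stem cells, was near 0 throughout. It had 3, 4 and 3 counts in luciferase, 2, 11 and 5 in SETBP1-D868N, 2, 0, 3 and 2 in DMSO and 2, 0, 2 and 1 in PF-9363. The groups overlapped in both experiments, no group passed the filter, and no fold is given.

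**Figure D2:**
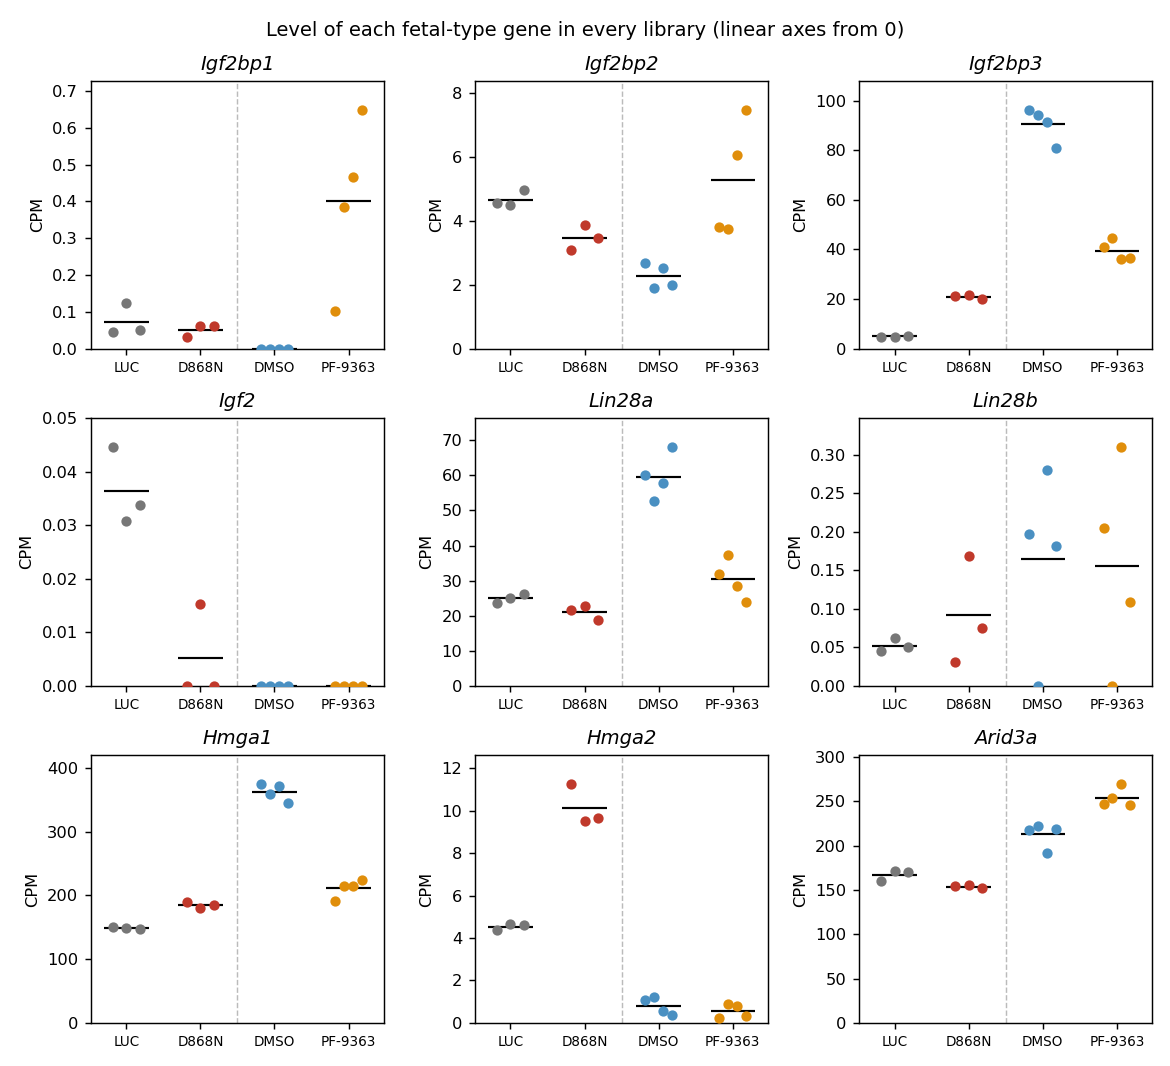
CPM of each of the 9 genes in every library (points), with the group mean (bars), for luciferase (LUC), SETBP1-D868N (D868N), DMSO and PF-9363; each panel has its own linear axis from 0, and the dashed line separates the 2 experiments. Igf2bp3 lies near 4.86 CPM in LUC and 20.9 in D868N, and Igf2, Lin28b and Igf2bp1 stay under 1 CPM.

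The HMGA proteins are small architectural proteins that bind the minor groove of AT-rich DNA. Hmga2, the fetal one and the classical let-7 target, lies at chr10:120361275-120476469 on the minus strand. It had 4.36, 4.64 and 4.60 CPM in luciferase (293, 302 and 273 counts) and 11.3, 9.51 and 9.64 CPM with SETBP1-D868N (739, 622 and 640 counts). The SETBP1-D868N libraries were all more than 2 times the highest control. The means were 4.53 ± 0.149 and 10.1 ± 0.975 CPM (SD, n = 3 each), and the log2 fold change was 1.16 (SE 0.083), or 2.24-fold.

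In the second experiment Hmga2 was too low to be tested. It had 11, 12, 6 and 4 counts in DMSO and 2, 7, 5 and 3 in PF-9363, and the groups overlapped. Both groups there carried SETBP1-D868N, yet the DMSO libraries had a mean of 0.802 CPM where the SETBP1-D868N libraries of the first experiment had 10.1 CPM. For Igf2bp3 the order was the reverse, with 90.8 CPM in DMSO and 20.9 CPM in SETBP1-D868N. Malsu1, which shares exon bases with Igf2bp3, was also higher in DMSO, at 46.1 to 54.5 CPM against 8.62 to 9.76 CPM in SETBP1-D868N. Reads of Igf2bp3 and Malsu1 cannot be told apart here either. The 2 experiments differ in RNA input (100 and 500 ng), library preparation and depth, which cannot be told apart from the cells themselves, and no test was made across them.

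Hmga1, which stays on in proliferating adult cells, was the most abundant member per kilobase of exon in every group. In CPM it lay above Arid3a with SETBP1-D868N and DMSO, and below Arid3a with luciferase and PF-9363. Hmga1 lies at chr17:27556497-27563674 on the plus strand. Luciferase libraries had 150, 148 and 147 CPM and SETBP1-D868N libraries 189, 181 and 186 CPM. The difference was small and wider than the spread, with a log2 fold change of 0.32 (SE 0.027), or 1.25-fold. In the second experiment DMSO libraries had 375, 358, 372 and 345 CPM and PF-9363 libraries 191, 214, 215 and 223 CPM. The groups lay far apart, with a log2 fold change of -0.78 (SE 0.061), or 1.72-fold lower. Its near-identical copy Hmga1b had 129 to 173 counts in luciferase, 183 to 224 in SETBP1-D868N, 19 to 23 in DMSO and 3 to 22 in PF-9363, and how reads were divided between the copies is uncertain. Hmga1 also shares 102 bases of exon with AI413582 on the opposite strand, which was lower with SETBP1-D868N (log2 fold change -0.23, SE 0.044) and higher with PF-9363 (0.77, SE 0.095).

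Arid3a, an AT-rich-interaction factor of early B cell and fetal blood development and a let-7 target, differed least. It lies at chr10:79927043-79955018 on the plus strand. It had 160, 171 and 171 CPM in luciferase and 154, 156 and 152 CPM with SETBP1-D868N, with a log2 fold change of -0.12 (SE 0.030). DMSO libraries had 217, 223, 192 and 219 CPM and PF-9363 libraries 247, 254, 270 and 245 CPM, with a log2 fold change of 0.26 (SE 0.062). The groups did not overlap in either experiment. Scaling by library size alone ended the call in both (-0.072 and 0.025), and under it the median of all genes tested with PF-9363 shifted by -0.23.

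Counted together, 3 of the 6 tested members were called higher with SETBP1-D868N (Igf2bp3, Hmga2, Hmga1) and 3 lower (Igf2bp2, Lin28a, Arid3a). Over all 15794 genes tested, 47.2% were called, 24.5% higher and 22.7% lower (edgeR, adjusted p under 0.05). With PF-9363, 2 of the 5 tested members were called higher (Igf2bp2, Arid3a) and 3 lower (Igf2bp3, Lin28a, Hmga1), where 76.0% of 13456 genes were called, 36.6% higher and 39.4% lower. Nothing is read from these counts, since the members were chosen with these comparisons in view. Of the 5 members tested in both, Igf2bp3 and Hmga1 were on the higher side with SETBP1-D868N and the lower side with PF-9363, as were 2240 (18.1%) of the 12376 genes tested in both. Igf2bp2 and Arid3a had the opposite order, as had 2084 genes (16.8%), and Lin28a was lower in both, as were 544 genes (4.40%). No member was higher in both, where 576 genes (4.65%) were.

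**Figure D3:**
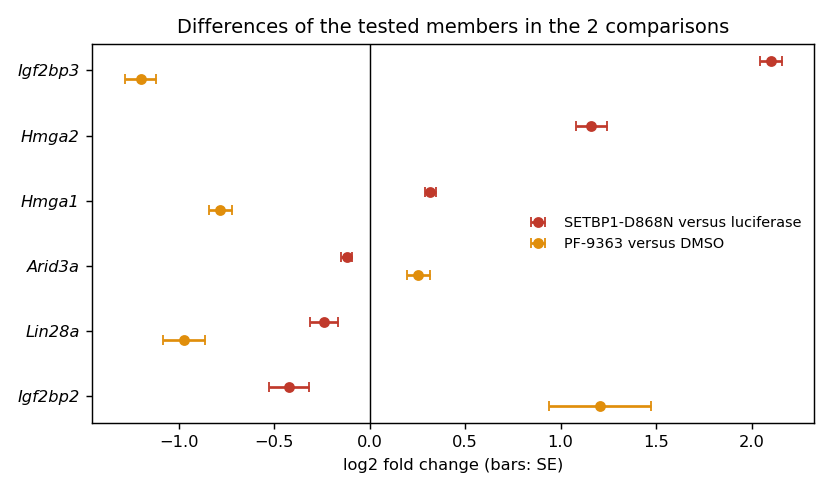
Log2 fold change of each tested member (points) with its SE (bars) in SETBP1-D868N versus luciferase and PF-9363 versus DMSO. Igf2bp3 spans 2.10 to -1.20 and Arid3a stays within 0.26 of 0; Hmga2 has no PF-9363 value because its counts were too low.

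Divided by exon length, so that genes can be compared, the order of levels was the same for the 3 highest members in all 4 groups. In CPM per kilobase of exon, Hmga1 had 69.9 in luciferase, 87.1 in SETBP1-D868N, 170.7 in DMSO and 99.3 in PF-9363. Arid3a followed with 30.1, 27.7, 38.3 and 45.7, and Lin28a with 6.24, 5.29, 14.9 and 7.62. The fourth place changed. In luciferase the levels per kilobase of Hmga2 (0.669), Igf2bp2 (0.629) and Igf2bp3 (0.596) were neighbours, and Hmga2 and Igf2bp2 overlapped between libraries. With SETBP1-D868N, Igf2bp3 (2.56) stood above Hmga2 (1.50) and Igf2bp2 (0.469) without overlap. In DMSO and PF-9363, Igf2bp3 was at 11.1 and 4.84, above Igf2bp2 (0.307 and 0.711) and Hmga2 (0.118 and 0.0815). These length-scaled levels assume that reads fall evenly over exons.

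Genes around the circuit were taken from lists that were chosen with earlier results of these data known. Their counts stand beside the shares over all genes of 24.5% higher and 22.7% lower with SETBP1-D868N, and 36.6% higher and 39.4% lower with PF-9363. The let-7 maturation list holds the processing enzymes and the uridylyl transferases that act with LIN28. With SETBP1-D868N 3 of 11 tested genes were higher and 1 lower (median log2 fold change 0.03, against 0.00 for all genes). Xpo5, the exporter of microRNA precursors, had a log2 fold change of 0.30 (SE 0.052) and Drosha, the nuclear cutting enzyme, 0.25 (SE 0.039), while Tut7 had -0.20 (SE 0.030). With PF-9363, 8 of 11 were lower and 3 higher (median -0.61, against -0.04 for all genes). Tut4 and Tut7, both uridylyl transferases of pre-let-7, moved apart: Tut4 went from 20.03 to 4.53 CPM (log2 fold change -2.12, SE 0.15, edgeR adjusted p = 3.21e-13) and Tut7 from 123 to 239 CPM (0.96, SE 0.062, edgeR adjusted p = 3.78e-14). Dis3l2, the exonuclease that degrades uridylated pre-let-7, went from 16.6 to 10.5 CPM (-0.67, SE 0.14). Trim71, itself a let-7 target, had at most 0.257 CPM in any library.

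Other genes known as let-7 targets did not move in 1 direction. With SETBP1-D868N 7 of 17 were higher and 6 lower (median 0.02), and the 7 fell to 3 without luciferase library 2, and to 4 without luciferase library 3, SETBP1-D868N library 2 or SETBP1-D868N library 3. Myc had a log2 fold change of 0.48 (SE 0.028), while Ccnd1 had -0.74 (SE 0.058) and Mycn -0.45 (SE 0.066). With PF-9363 6 were higher and 6 lower (median -0.27). The cyclin gene Ccnd2 went from 90.6 to 330.4 CPM (1.87, SE 0.12) and the receptor gene Tgfbr1 from 59.0 to 182 CPM (1.62, SE 0.068). Myc went from 177 to 30.2 CPM (-2.55, SE 0.075, edgeR adjusted p = 4.94e-22) and the phosphatase gene Cdc25a from 87.0 to 14.2 CPM (-2.61, SE 0.095).

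In the IGF axis the counted reads of Igf2 stood at the floor, while Igf1 and the receptors were detected. With SETBP1-D868N 4 of 11 tested genes were higher and 5 lower (median -0.37). Igf1 went from 56.6 to 37.7 CPM (-0.59, SE 0.11), Igf2r, the clearance receptor of IGF2, from 15.1 to 9.12 CPM (-0.73, SE 0.16), and the signalling receptor Igf1r from 101 to 127 CPM (0.34, SE 0.043). H19 went from 1.58 to 0.358 CPM (-2.13, SE 0.36, edgeR adjusted p = 0.00151), Igfbp5 from 219 to 95.5 CPM (-1.20, SE 0.034) and Igfbp4 from 180.1 to 310.2 CPM (0.78, SE 0.030). With PF-9363 7 of 10 were higher and 3 lower (median 1.16). Igf1 went from 13.1 to 47.2 CPM (1.84, SE 0.10), Igf2r from 9.59 to 29.7 CPM (1.63, SE 0.13), and Igf1r from 134 to 69.2 CPM (-0.96, SE 0.072). The binding protein gene Igfbp4 had 159 to 194 CPM in DMSO and 8.12 to 14.8 CPM in PF-9363, or -4.07 on the log2 scale (SE 0.13; adjusted p = 9.60e-15 by edgeR). Igf1 is also made by macrophages, whose markers were higher in the same libraries, and their part in this was not tested.

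Of 12 imprinted growth genes, a group that is mostly high in the fetus, Gnas held nearly all of the summed level (809 to 819 CPM in luciferase, 803 to 818 in SETBP1-D868N, 470.4 to 508 in DMSO and 291 to 317 in PF-9363). With SETBP1-D868N 1 of 8 tested genes was higher and 3 lower (median -0.38). The higher one was lost without luciferase library 1, luciferase library 3 or SETBP1-D868N library 2, and the 3 lower ones became 1 without luciferase library 3 or SETBP1-D868N library 3. With PF-9363 4 of 5 were lower and 0 higher (median -1.24). Dlk1, a Notch-family membrane protein of fetal progenitors, had 7.52, 5.97, 7.29 and 7.60 CPM in DMSO and 0.822, 0.643, 0.155 and 0.216 CPM in PF-9363 (-3.85, SE 0.33, edgeR adjusted p = 1.81e-11). In PF-9363 libraries 3 and 4, 1 count is worth 0.155 and 0.108 CPM. Dlk1 was thus near the floor in them, and the size of its fold is uncertain. In the first experiment Dlk1 was at 0.107 to 0.346 CPM in all 6 libraries. The non-coding RNA Rian of the same imprinted locus had 1.89 to 4.02 CPM in DMSO and 0 to 0.108 CPM in PF-9363.

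Of 8 tested relatives of the HMGA and ARID3 genes, 5 were higher and 0 lower with SETBP1-D868N (1 lower without luciferase library 1, median 0.17), where 24.5% of all genes were higher. With PF-9363 6 were lower and 2 higher (median -0.97), where 39.4% of all genes were lower. Hmgn3, a nucleosome-binding protein gene, was called higher in both comparisons. Its log2 fold change was 0.54 (SE 0.048) in the first and 0.79 (SE 0.28) in the second, where the groups overlapped. In the second comparison Hmgn5 went from 79.4 to 17.9 CPM (-2.15, SE 0.15) and Hmgb2, which bends DNA in dividing cells, from 906 to 251 CPM (-1.85, SE 0.21). Arid3b, the closest relative of Arid3a, was not called with SETBP1-D868N (-0.08, SE 0.043, edgeR adjusted p = 0.163). With PF-9363 it was higher (0.52, SE 0.12). The count of 2 higher with PF-9363, Hmgn3 and Arid3b, fell to 1 without PF-9363 library 4 or with scaling by library size alone. Cell-division genes moved beside them: 11 of 15 were higher with SETBP1-D868N (7 without luciferase library 3) and 15 of 15 lower with PF-9363, where their summed level was 3032 to 3313 CPM in DMSO and 494 to 875 CPM in PF-9363. Their part in the values of Hmga1 and Hmgb2 was not tested.

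Writers, erasers and other readers of m6A, the mark that IGF2BP proteins read, differed by small amounts with SETBP1-D868N (6 of 13 higher, 0 lower, median 0.03, with 1 lower when luciferase library 1 or SETBP1-D868N library 3 was left out). With PF-9363 4 were higher and 6 lower (median -0.15). The reader Ythdf3 went from 89.7 to 174 CPM (0.96, SE 0.066) and the demethylase Alkbh5 from 219 to 124 CPM (-0.82, SE 0.064). Of the globin genes and their regulators, 3 of 5 tested were higher and 0 lower with SETBP1-D868N, and 1 of 3 was higher and 1 lower with PF-9363 (2 lower without PF-9363 library 3). The embryonic genes Hbb-bh1, Hbb-y and Hba-x had at most 0.433 CPM in any library. Bcl11a, the repressor of embryonic globin genes, went from 48.3 to 58.7 CPM with SETBP1-D868N (0.28, SE 0.039) and from 27.9 to 8.45 CPM with PF-9363 (-1.73, SE 0.13, edgeR adjusted p = 6.30e-13). The adult gene Hbb-bt was higher in both comparisons, by log2 fold changes of 1.92 (SE 0.12) and 1.15 (SE 0.25).

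**Figure D4:**
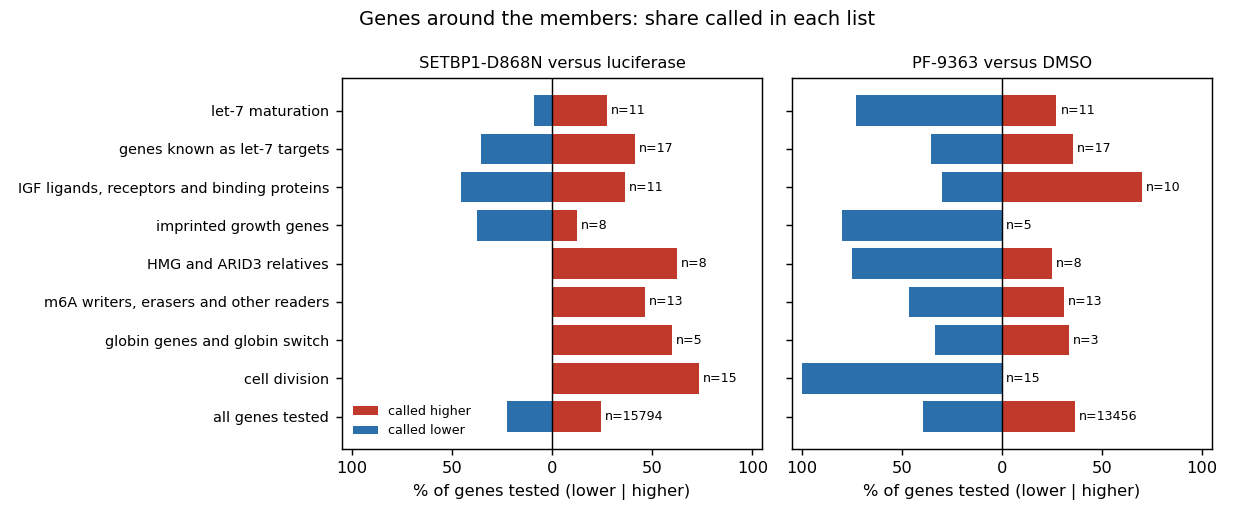
Percent of tested genes called higher (red, to the right) or lower (blue, to the left) in each list around the fetal-type genes, with the same over all genes in the lowest bar, for both comparisons. All 15 cell-division genes are lower with PF-9363, against 39.4% of all genes.

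Genes with the pattern most like each member were found over all 14 libraries, as the smallest root mean square difference of log2 CPM centred on the control group of each experiment, among 12375 other genes tested in both. For Igf2bp3 these were Tmem215 (0.269 log2 units), Spin4 (0.277) and Serpinf1 (0.336). Spin4 had log2 fold changes of 2.29 and -0.84 in the 2 comparisons, and Tmem215 2.01 and -1.62. Among the genes nearest to Hmga1 were Rpn1 (0.0509) and Npm1 (0.0601), and Lin28a was nearest to Clec4b2 (0.0857), Dstn (0.110) and Slc27a1 (0.116). Igf2bp2 was nearest to Skap1 (0.191), Slc44a1 (0.193) and Arap2 (0.197), and Arid3a to Cyld (0.0340), Ppp2r5c (0.0430) and Il16 (0.0489). The distances of Igf2bp3 were the longest of the 5 members tested in both experiments. No pair of members was among these nearest genes.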

How the data were processed

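The authors deposited raw read counts per gene symbol, 1 table per experiment, per the labels. The submitters' processing notes name STAR, DESeq2 and the build GRCm38 (mm10), and the counting program and its strand setting are not given in the sources used here. The libraries came from poly(A) RNA, with the Watchmaker kit from 500 ng in the first experiment and through Novogene from 100 ng in the second, per the labels' protocols. Everything else was computed here with R 4.3.3. Each experiment was fitted whole with edgeR 4.0.16 (filterByExpr with minimum count 10 and minimum total 15, TMM, robust quasi-likelihood test, group as the only factor), and Benjamini-Hochberg adjusted p under 0.05 was a call. SE is the absolute log2 fold change over the square root of F. Detection limits are 3 counts over the library total, without TMM, and cover counting error only. A depth of 7083731 to 10359093 counts in the second experiment makes low genes less precise there than 60147266 to 68730322 counts in the first.

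The members, lists and tests were chosen with earlier results of these data known. Named list genes were the 2 called genes per list, comparison and direction with the largest absolute log2 fold change among those whose higher group averaged 1 CPM or more. Igf1, Igf1r, Igf2r, Dis3l2, Arid3b, Trim71, the embryonic globin genes, and Bcl11a with SETBP1-D868N were named after their values were seen, for their roles. The values of 1 gene that the rules name are not reported here. Positions, exon lengths and 3′ UTRs are from GENCODE M21 and sequences of miRNAs and promoters from RefSeq (GRCm38.p6). Alternatives were RLE or library size scaling, no filter, DESeq2 1.42.0, limma-voom (limma 3.58.1), no robust estimation, the replicate number as a block, and each library left out in turn. No library was removed.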

Additional observations from a re-analysis of the deposited data

Results flagged for a closer look

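Arid3a in the DMSO group had 1 library apart from the others: DMSO library 3 had 192 CPM, and the other 3 had 217 to 223 CPM, so that its gap to the next library took up most of the range of the group. Of the 15 sets of a member and a group with 4 libraries that were looked at in this way, this was the only one, and chance gives about 1 in 20. Without DMSO library 3 Arid3a was still called higher with PF-9363, with a log2 fold change of 0.20.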

How the results depend on the processing

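Of the recomputed member log2 fold changes, 148 kept their direction and their side of the threshold and 5 kept the direction but lost the call: Lin28a and Arid3a with SETBP1-D868N under library size scaling, Lin28a without luciferase library 2 or 3, and Arid3a with PF-9363 under library size scaling, all with the values given above. The cause was not tested. With library size alone, members called lower with SETBP1-D868N became 1 and members called higher with PF-9363 became 1. That scaling also moved the share of calls that were higher from 51.9% to 62.1% with SETBP1-D868N and from 48.1% to 36.2% with PF-9363. DESeq2, run without the count filter and so over more genes, shifted the median log2 fold change with PF-9363 by 0.11. Without the filter, edgeR shifted that median by 0.078. Genes called without 1 library ranged from 6436 to 7086 with SETBP1-D868N and from 10015 to 10261 with PF-9363, and members called lower with SETBP1-D868N from 2 to 3. Left-out libraries moved list counts with SETBP1-D868N to ranges of 3 to 6 (let-7 targets higher), 0 to 1 (imprinted higher), 1 to 3 (imprinted lower), 7 to 11 (cell division higher), 0 to 1 (HMG relatives lower) and 0 to 1 (m6A lower), and with PF-9363 to 1 to 2 (globin lower) and 1 to 2 (HMG relatives higher). Other settings that moved a list count were no filter (m6A lower with SETBP1-D868N 1), DESeq2 (imprinted lower with SETBP1-D868N 1) and library size (HMG relatives higher with PF-9363 1). Depth limits Igf2bp1, Igf2, Lin28b and, in the second experiment, Hmga2.

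Same-numbered libraries did not deviate together (correlations of -0.10 to -0.04 with SETBP1-D868N and -0.04 to 0.01 with PF-9363), and the numbers were not taken as pairs. With the replicate number as a block, 6640 genes were called with SETBP1-D868N and 10124 with PF-9363, the members' calls were the same, and let-7 targets called higher with SETBP1-D868N were 4.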
